A study of Mus musculus with 6 samples.

Results

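The genes described here encode the thin filament, the Z-disc and the M-band of the heart muscle sarcomere, with the titin and myosin-binding proteins that link these structures and the factors that assemble and turn them over. They were chosen as 37 named genes, found on the array through the RefSeq accession of each gene probe. All 37 had a probe, 55 probes in all, out of 20128 genes with a symbol and a probe on the array. Gene expression was measured with 1 Agilent 1-colour array per heart, in RNA from the hearts of C57/B6 mice aged 8 weeks. The KO-labelled hearts (n = 3) came from PHD2/3 f/f mice with the Cre+/- genotype and the control hearts (n = 3) from PHD2/3 f/f mice with the Cre-/- genotype, so both groups carried the floxed PHD2 and PHD3 alleles. The labels call the replicates biological. They do not say which promoter drives Cre, whether it was induced, which exons it removes and whether the mice were male or female. One label names a column kit used on hearts and another a blood RNA kit with globin depletion, and which was used was not resolved here. The series title asks how the 2 hydroxylases act on phospholamban through a thyroid hormone receptor.

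In a sarcomere, thin filaments of actin, tropomyosin and troponin are anchored by their barbed ends in the Z-disc and slide past thick filaments of myosin that are held in register by the M-band. Titin spans from the Z-disc to the M-band as a spring. The Z-disc is built on alpha-actinin, carries adaptor proteins that signal mechanical load, and is tied to its neighbours by desmin filaments. Chaperones and methyltransferases help myosin and titin into place, and muscle ubiquitin ligases remove damaged parts.

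PHD2 and PHD3 are the oxygen-dependent prolyl hydroxylases encoded by Egln1 and Egln3. Egln1 was lower in the KO-labelled hearts (log2 difference -1.23, adjusted p = 0.00653) and Egln3 was higher (log2 difference 1.98, adjusted p = 0.00166), so Egln3 went against the label at face value. The position of its probe with respect to any deleted exon is unknown, so the hearts keep the names their labels give. Every value below is a log2 signal relative to the 75th percentile of its array, which compares hearts for 1 probe and does not compare genes with each other. Differences are KO-labelled minus control, and a gene passed when limma's moderated test, fitted over 20020 genes and unnamed features, gave an adjusted p below 0.05 (Benjamini-Hochberg). Between 25771 and 28354 probes an array were well above background, with 0 saturated probes and a 75th percentile signal of 147 to 235. Across genes, which are not independent replicates, the correlation of array signals was 0.976 to 0.987 among KO-labelled hearts, 0.983 to 0.993 among control hearts and 0.921 to 0.970 between the groups. The ventricular cardiomyocyte markers were all measured, and the number of arrays, 3 a group, limits the precision of every value.

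More of these genes were lower than higher in the KO-labelled hearts. Of the 37, 18 fell and 6 rose, and 13 did not pass. Over all genes and features tested, 39.1% passed, 23% lower and 16.1% higher, against 48.6% lower and 16.2% higher among the 37. The share that rose was thus near the share over all genes. The median log2 difference was -0.51 over the 37 and -0.11 over all genes and features tested. The groups did not overlap for 19 genes that were lower and 6 that were higher in the KO-labelled hearts, where 33.1% and 22.7% of all genes and features did so, 55.9% in either direction. A fall of at least 2-fold that passed was found for 10 of the 37 and a rise of at least 2-fold for 4, against 8.42% and 8.03% over all. The genes were Myot, Trim54, Mylk3, Tcap, Smyd1, Lmod3, Myom2, Synpo2, Ldb3 and Myoz2 among the falls, and Mybpc2, Myoz1, Des and Flnc among the rises. Of these, Myoz1 entered the test only through the KO-labelled hearts, where it is higher, since it was well above background on 2 of the 3 control arrays, and with normexp background correction it did not pass. In bulk RNA, fewer cardiomyocytes in a heart and less of these RNAs per cardiomyocyte cannot be told apart.

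The counts depended on single hearts. Without control replicate 1, 2 of the 37 rose and 11 fell, and the same counts were found without control replicate 3. Over all genes and features the share that passed also fell, to 19.3% and 19.7% without these hearts, against 39.1% with all 6. Without KO-labelled replicate 3, 3 rose and 13 fell, and without control replicate 2, 4 rose and 21 fell. The share of all genes and features that passed was 25.2% without the first of these hearts and 43.2% without the second. Over the 19 alternative settings that kept 5 or 6 hearts, 10 of the 24 passing genes passed every time. These were Mybpc2 among the rises and Myom2, Lmod3, Ldb3, Myoz2, Myot, Synpo2, Smyd1, Mylk3 and Trim54 among the falls.

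**Figure D1:**
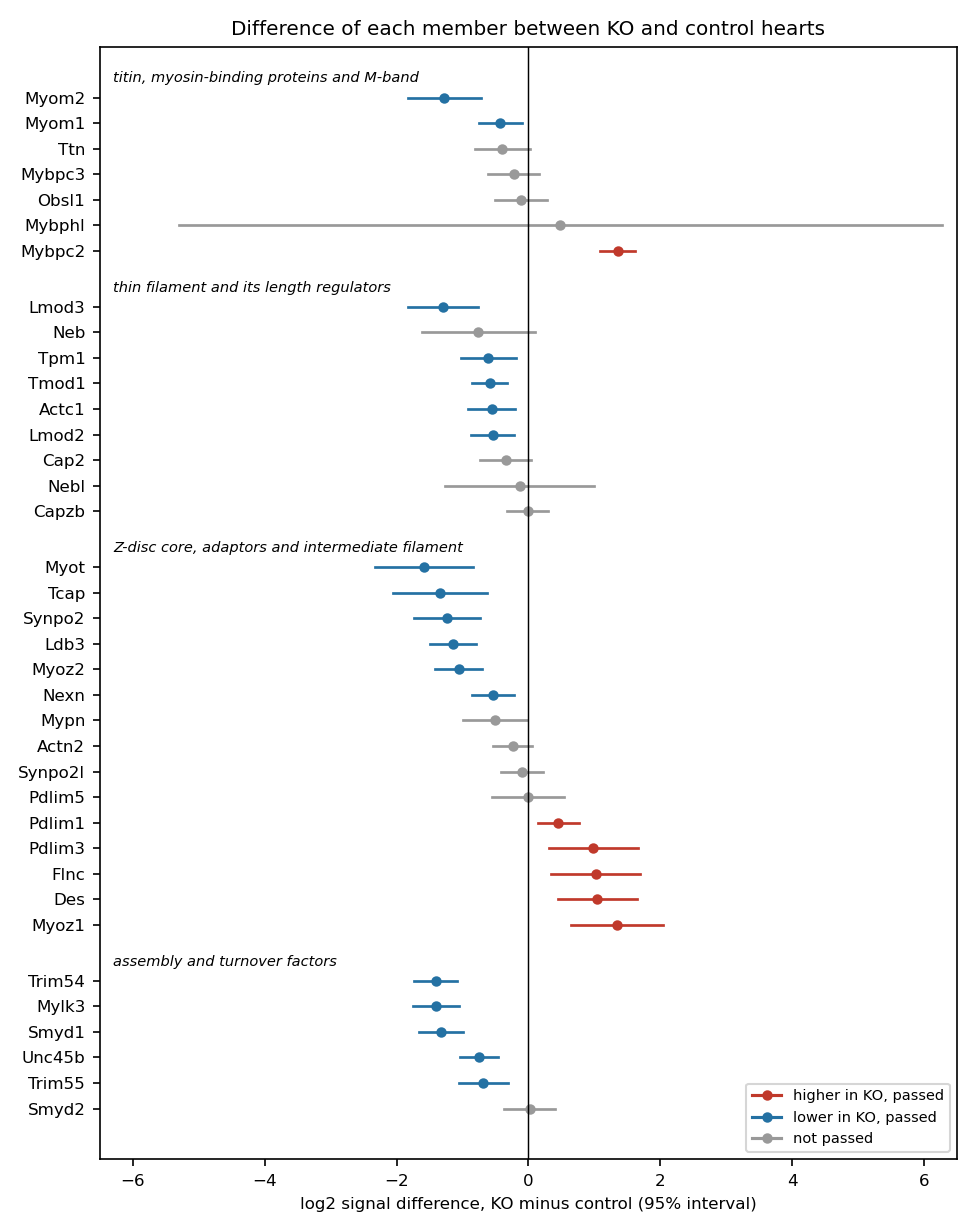
The log2 signal difference, KO-labelled minus control, is plotted for each of the 37 genes, grouped by role, with its 95% interval from limma (n = 3 hearts a group). Points left of 0 are lower in the KO-labelled hearts, from Myot at -1.59, and points right of 0 are higher, up to Mybpc2 at 1.35; the interval of Mybphl spans -5.30 to 6.27.

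The shift was found in each KO-labelled heart. The median deviation of the 37 genes from their control means was -0.59, -0.48 and -0.50 in KO-labelled replicates 1, 2 and 3, against 0.14, -0.20 and 0.07 in control replicates 1, 2 and 3. Among the 18 genes that fell, KO-labelled replicate 1 held the lowest KO-labelled value for 12, and control replicate 2 held the lowest control value for 14. KO-labelled replicate 1 was also the highest KO-labelled heart for all 6 genes that rose. These 2 hearts had the brightest array of their group, with a 75th percentile signal of 235 in KO-labelled replicate 1, against 187 and 198 in the other KO-labelled arrays, and 201 in control replicate 2, against 147 and 148 in the other control arrays. The part of array brightness in these values was not tested.

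**Figure D2:**
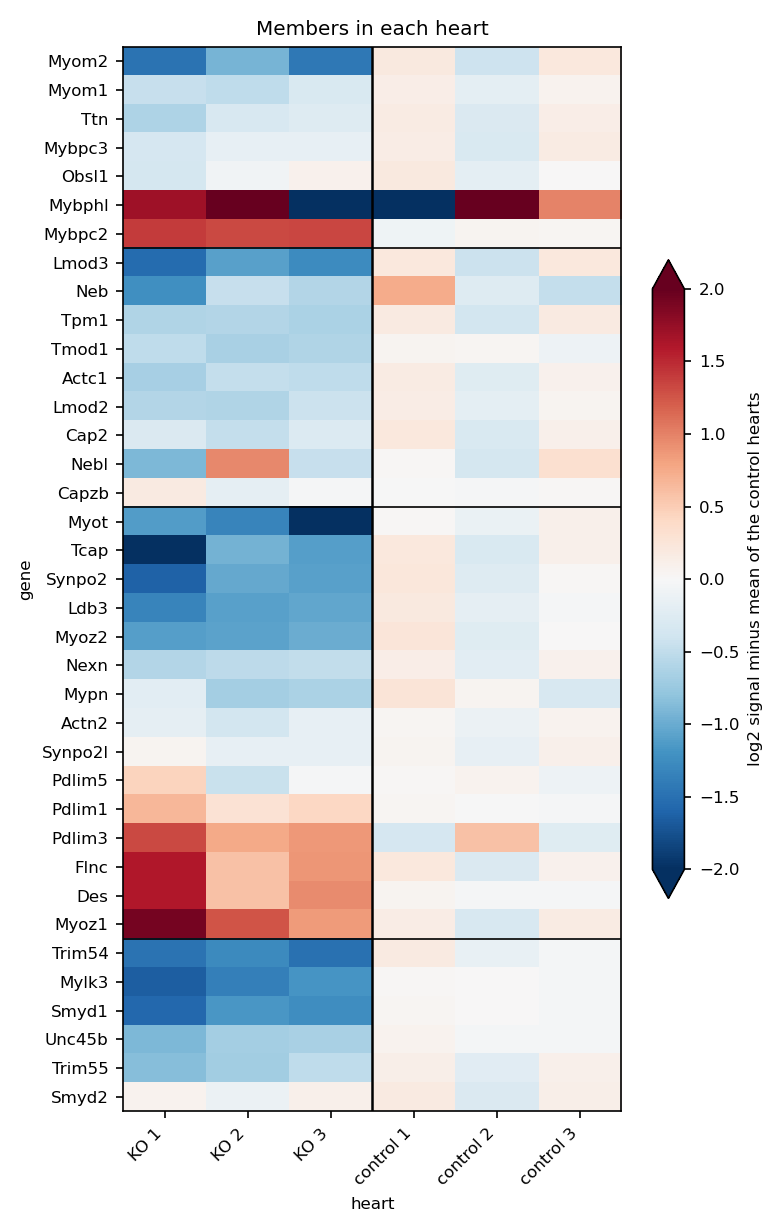
Colour gives the log2 signal of each gene in each heart minus the mean of the 3 control hearts, with KO-labelled hearts on the left and control hearts on the right. The blue block is the genes lower in all 3 KO-labelled hearts, and Mybphl and a few others vary within the groups instead.

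Promoter sequence is shown for 7 genes, 4 that fell and 3 that rose, as examples from the thin filament, the Z-disc, the myosin-binding proteins and the turnover factors. The sequences come from RefSeq on build GRCm38.p6, which matched 29 of the 37 genes with 37 windows, and each gives the 250 bases upstream of the annotated start, 5′ to 3′ along the gene. Capitals mark matches, on both strands, to the serum response factor's CArG box, to the MEF2 site, or to the core bound by hypoxia-inducible factors, ACGTG or GCGTG. The windows of Des and Trim54 hold none of these letters. Those that fell come first, with Actc1 at chr2:114052876-114053125, minus strand, Ldb3 at chr14:34588608-34588857, minus strand, Myoz2 at chr3:123034988-123035237, minus strand and Trim54 at chr5:31116362-31116611, plus strand. Those that rose are Mybpc2 at chr7:44524670-44524919, minus strand, Des at chr1:75360042-75360291, plus strand and Flnc at chr6:29432903-29433152, plus strand.
Actc1: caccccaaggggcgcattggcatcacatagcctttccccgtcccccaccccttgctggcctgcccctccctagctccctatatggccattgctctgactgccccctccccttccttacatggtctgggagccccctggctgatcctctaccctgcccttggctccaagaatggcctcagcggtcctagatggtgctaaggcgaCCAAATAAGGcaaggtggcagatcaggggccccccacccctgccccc
Ldb3: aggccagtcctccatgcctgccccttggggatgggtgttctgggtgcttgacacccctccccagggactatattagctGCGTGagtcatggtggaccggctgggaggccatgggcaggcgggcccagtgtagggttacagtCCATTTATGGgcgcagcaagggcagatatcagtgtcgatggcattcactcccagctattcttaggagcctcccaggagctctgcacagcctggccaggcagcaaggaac
Myoz2: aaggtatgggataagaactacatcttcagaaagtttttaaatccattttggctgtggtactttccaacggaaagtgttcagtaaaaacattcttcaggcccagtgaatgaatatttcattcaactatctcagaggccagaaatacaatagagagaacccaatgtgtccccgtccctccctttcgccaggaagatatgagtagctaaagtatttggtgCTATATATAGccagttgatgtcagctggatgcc
Trim54: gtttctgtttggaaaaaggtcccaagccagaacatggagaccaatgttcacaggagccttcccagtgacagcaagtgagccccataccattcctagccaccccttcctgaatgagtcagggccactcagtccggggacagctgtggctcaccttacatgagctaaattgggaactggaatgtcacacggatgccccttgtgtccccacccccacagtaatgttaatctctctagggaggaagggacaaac
Mybpc2: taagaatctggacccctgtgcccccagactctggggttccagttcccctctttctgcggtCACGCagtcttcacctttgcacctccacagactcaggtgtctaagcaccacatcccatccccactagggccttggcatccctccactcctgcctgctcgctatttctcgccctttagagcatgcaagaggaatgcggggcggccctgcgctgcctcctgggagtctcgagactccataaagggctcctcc
Des: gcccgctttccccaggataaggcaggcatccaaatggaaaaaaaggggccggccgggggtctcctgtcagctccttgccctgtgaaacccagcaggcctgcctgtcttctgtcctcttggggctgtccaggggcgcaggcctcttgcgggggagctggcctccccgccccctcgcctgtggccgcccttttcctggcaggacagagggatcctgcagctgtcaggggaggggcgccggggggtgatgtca
Flnc: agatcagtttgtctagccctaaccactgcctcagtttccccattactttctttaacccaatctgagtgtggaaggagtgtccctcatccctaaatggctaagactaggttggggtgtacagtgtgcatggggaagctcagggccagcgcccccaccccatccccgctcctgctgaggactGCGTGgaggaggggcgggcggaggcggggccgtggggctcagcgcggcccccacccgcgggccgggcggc

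The Actc1 window holds a CArG box that starts 47 bases before the annotated start, the Ldb3 window one that starts 109 bases before it, and the Myoz2 window a MEF2 site that starts 33 bases before it. A CArG box was found in 13.5% of the 37 windows of these genes and in 1.5% of all 32851 windows of the same length, and a MEF2 site in 16.2% of them and in 2.9% of all. The factor-binding core ACGTG or GCGTG was found in 35.1% of the windows of these genes, against 38.6% of all. That was 5 of the 14 windows of genes that fell and 4 of the 6 of genes that rose. Of genes that did not pass, 4 of the 17 windows held it. The thyroid hormone half-site AGGTCA was found in 8.1% of the windows of these genes, against 14% of all. In windows of genes that fell, rose and did not pass, a CArG box was found in 4, 0 and 1. A MEF2 site was found in 2, 0 and 4 of these windows, and the half-site in 0, 0 and 3. Different windows of a gene can overlap. The windows of Ldb3 share 1 CArG box and a core, and those of Flnc share a core, so these were counted more than once. Synpo2l entered the MEF2 count with separate windows. A palindromic core is matched on each strand, and a match is a description of letters, not of a bound site.

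Titin, the myosin-binding proteins and the M-band proteins had a median log2 difference of -0.22 over 7 genes. Of these 1 rose, 2 fell and 4 did not pass. The shares, 14.3% higher and 28.6% lower, were near the 16.1% and 23% over all genes and features tested. Titin itself, Ttn (NM_011652), had 7.19, 7.48 and 7.54 in the KO-labelled hearts, against 7.97, 7.51 and 7.94 in the control hearts. One KO-labelled value lay above the lowest control value, and the difference of -0.40 ± 0.17 SE did not pass (adjusted p = 0.112). The other 3 Ttn probes lay between -0.36 and -0.41. Mybpc3 (NM_008653), the cardiac myosin-binding protein C, had 9.48, 9.64 and 9.64 in the KO-labelled hearts, against 9.96, 9.51 and 9.97 in the control hearts, and did not pass (log2 difference -0.22, adjusted p = 0.302). Its sign turned under quantile, cyclic loess and spike-in scaling.

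Mybpc2 (NM_146189), the fast skeletal form of myosin-binding protein C, rose 2.55-fold. It had 3.66, 3.57 and 3.58 in the KO-labelled hearts, against 2.16, 2.30 and 2.29 in the control hearts. The 2 groups were far apart beside the spread within each (log2 difference 1.35 ± 0.11 SE, adjusted p = 0.00143). Myom2 (NM_008664), a myomesin that crosslinks myosin filaments in the M-band of fast and adult cardiac muscle, fell 2.42-fold. Its values were 7.79, 8.33 and 7.83 in the KO-labelled hearts, against 9.46, 8.85 and 9.47 in the control hearts (log2 difference -1.27 ± 0.23 SE, adjusted p = 0.00834). Myom1, the general myomesin, fell by 0.43 on the log2 scale, with 6.08 to 6.29 in the KO-labelled hearts and 6.39 to 6.72 in the control hearts (adjusted p = 0.0483). That call was lost in 11 of the 19 alternatives. Obsl1 (NM_178884), a cytoskeletal linker protein of the M-band, had 4.53, 4.80 and 4.95 in the KO-labelled hearts, against 5.07, 4.67 and 4.87 in the control hearts. Its values overlapped, its difference was -0.11 (adjusted p = 0.628), and its second probe read 0.14.

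Mybphl (NM_026831), a myosin-binding protein H-like protein of atrial muscle and the conduction system, varied more within the groups than between them. It had 2.27, 3.79 and -2.88 in the KO-labelled hearts, against -3.92, 4.08 and 1.56 in the control hearts, and exceeded background clearly on all 3 KO-labelled arrays but on 2 of the 3 control arrays. The difference of 0.48 ± 2.42 SE did not pass (adjusted p = 0.89). Myl7, the atrial myosin light chain, took 4.96, 7.08 and 0.38 in the same KO-labelled hearts, against -1.74, 6.79 and 4.88 in the control hearts. Both genes were low in KO-labelled replicate 3 and control replicate 1, and the order of the 6 hearts differed only in that KO-labelled replicate 2 and control replicate 2 change places. Sln and Myl4 were likewise low in those 2 hearts. None of the 6 atrial markers measured passed in limma's test, and 0 of them had an unadjusted p below 0.05. Their summed linear signal ran from 1445 to 2800 in the KO-labelled hearts and from 146.8 to 2384 in the control hearts, and Bmp10 was not well above background on every array of either group. Without Nppa, which carries most of that sum, it was 429.3, 1103 and 39.22 in KO-labelled replicates 1, 2 and 3, against 7.439, 1013 and 293.3 in control replicates 1, 2 and 3. With KO-labelled replicate 3 and control replicate 1 left out, 401 genes and features passed, none of the 37 rose (4 at an unadjusted p below 0.05) and 1 fell (13 at an unadjusted p below 0.05), which was Mylk3. With that pair left out 23 of the 24 passing genes did not pass, all in their former direction, and 1.96% of all features passed. The median log2 difference of the 37 was then -0.42, with Trim54 at -1.28, Smyd1 at -1.34 and Mybpc2 at 1.32. The part of the atrial RNA in the group differences was not tested.

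**Figure D3:**
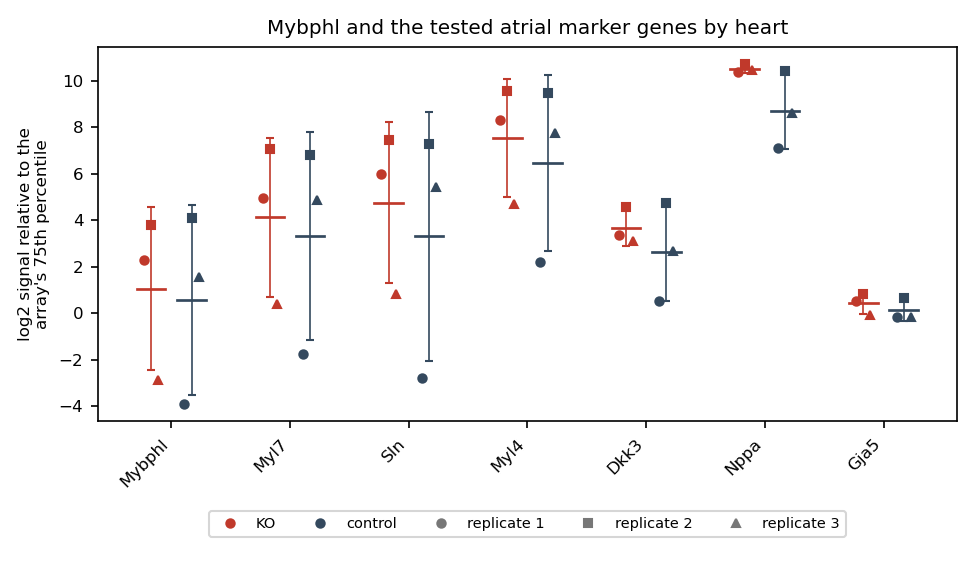
The log2 signal relative to the 75th percentile of the array is plotted for Mybphl and the atrial markers, KO-labelled hearts left and control hearts right within each gene, 1 point per heart. Levels are to be compared within a gene only; Mybphl and Myl7 are both low in KO-labelled replicate 3 and control replicate 1.

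Of the 9 thin filament genes 5 fell and 4 did not pass, with a median log2 difference of -0.56. The shares were 55.6% lower and 0% higher, against 23% and 16.1% over all genes and features tested. Actc1 (NM_009608), cardiac alpha-actin, whose promoter carries the CArG box shown above, had 10.52, 10.71 and 10.68 in the KO-labelled hearts, against 11.36, 10.95 and 11.27 in the control hearts. All KO-labelled values lay below all control values (log2 difference -0.56 ± 0.15 SE, adjusted p = 0.0267). This call was lost in 9 of the 19 alternatives, and under quantile scaling the difference was -0.0008 (adjusted p = 0.996). Tpm1 (NM_001164248), alpha-tropomyosin, had 10.29, 10.31 and 10.26 in the KO-labelled hearts, against 11.08, 10.54 and 11.08 in the control hearts. It fell by 0.61 on the log2 scale (adjusted p = 0.0328), lost the call in 11 of the 19 alternatives, and with the mean of its 5 probes read 0.0014. Its other probes read -0.64, 0.86, 0.28 and 0.12, of which only the first passed (adjusted p = 0.0228).

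Of the length regulators, Lmod3 (NM_001081157), a leiomodin that nucleates and lengthens actin filaments, fell 2.45-fold. It had 4.28, 4.74 and 4.56 in the KO-labelled hearts, against 6.03, 5.39 and 6.03 in the control hearts (log2 difference -1.29 ± 0.22 SE, adjusted p = 0.00691). Its relative Lmod2 fell by 0.54 on the log2 scale, with 0.61 to 0.78 in the KO-labelled hearts and 1.01 to 1.36 in the control hearts (adjusted p = 0.022). Tmod1, which caps the pointed ends of thin filaments, fell by 0.59 on the log2 scale, with 2.95 to 3.09 in the KO-labelled hearts and 3.51 to 3.67 in the control hearts (adjusted p = 0.00969). Of the 19 alternatives with 5 or 6 hearts, the Tmod1 call was lost in 1, spike-in scaling (adjusted p = 0.226), and the Lmod2 call in 8. The others gave no call. Capzb (NM_009798), the beta subunit of the barbed-end capping protein, had 3.90, 3.54 and 3.70 in the KO-labelled hearts, against 3.72, 3.70 and 3.74 in the control hearts (log2 difference -0.01, interval -0.32 to 0.30), and its sign turned under all 4 other scalings. Cap2, an actin-recycling protein, read -0.35 (adjusted p = 0.134) and Nebl, the cardiac nebulin-related nebulette, read -0.13 (adjusted p = 0.845). Neb (NM_010889), the skeletal thin filament ruler nebulin, had -1.70, -0.95 and -1.07 in the KO-labelled hearts, against 0.27, -0.75 and -0.97 in the control hearts. The groups overlapped (log2 difference -0.76, adjusted p = 0.136), while its second probe read -1.13 (adjusted p = 0.0241).

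The Z-disc genes split. Of 15, 5 rose, 6 fell and 4 did not pass, with a median log2 difference of -0.24. The shares were 33.3% higher and 40% lower, against 16.1% and 23% over all genes and features tested. The scaffold Actn2 (NM_033268), alpha-actinin 2, had 7.10, 6.92 and 7.13 in the KO-labelled hearts, against 7.33, 7.18 and 7.36 in the control hearts. The groups did not overlap, but the difference of -0.24 did not pass (adjusted p = 0.154). Tcap (NM_011540), telethonin, which caps the Z-disc end of titin, fell 2.54-fold, with 8.40, 9.45 and 9.28 in the KO-labelled hearts, against 10.60, 10.08 and 10.48 in the control hearts. Its difference was -1.35 ± 0.30 SE (adjusted p = 0.0152), and the call was lost in 3 of the 19 alternatives, among them those without control replicate 1 (adjusted p = 0.0604) and without control replicate 3 (adjusted p = 0.0572).

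Ldb3 (NM_001039076), the PDZ and LIM protein known as Cypher or ZASP, fell 2.21-fold. It had 4.93, 5.17 and 5.21 in the KO-labelled hearts, against 6.44, 6.07 and 6.23 in the control hearts (log2 difference -1.15 ± 0.15 SE, adjusted p = 0.00363). Its probe for the transcript NM_011918 read -0.06, and the 2 probes are compared below. Myoz2 (NM_021503), the cardiac calsarcin, which binds calcineurin at the Z-disc, had 6.58, 6.62 and 6.69 in the KO-labelled hearts, against 7.92, 7.45 and 7.69 in the control hearts. It fell 2.08-fold (log2 difference -1.06 ± 0.15 SE, adjusted p = 0.00433). Its fast skeletal relative Myoz1 (NM_021508) passed as higher, with -1.33, -1.99 and -2.40 in the KO-labelled hearts, against -3.09, -3.56 and -3.08 in the control hearts (adjusted p = 0.0139). Myoz1 was dim, clearly above background in all 3 KO-labelled hearts but in 2 of the 3 control hearts, and with normexp background correction its difference was 0.26 (adjusted p = 0.176).

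Myot (NM_001033621), myotilin, which crosslinks actin and binds alpha-actinin and filamin C, had the largest fall of the 37. It had 1.06, 0.86 and -0.14 in the KO-labelled hearts, against 2.20, 2.06 and 2.29 in the control hearts (log2 difference -1.59 ± 0.31 SE, adjusted p = 0.0102). KO-labelled replicate 3 was the lowest of the 6 hearts. Synpo2 (NM_080451), the actin-bundling myopodin, fell 2.36-fold, with 0.20, 0.80 and 0.73 in the KO-labelled hearts, against 2.05, 1.56 and 1.84 in the control hearts (adjusted p = 0.00672). Its 2 further probes read -1.09 (adjusted p = 0.0559) and -0.05 (adjusted p = 0.912). Nexn, the actin-binding nexilin, fell by 0.54 on the log2 scale, with 5.29 to 5.39 in the KO-labelled hearts and 5.67 to 6.02 in the control hearts (adjusted p = 0.0214), and lost its call in 7 of the 19 alternatives. Mypn, myopalladin, read -0.51 (adjusted p = 0.0848) and Synpo2l, a Z-disc relative of Synpo2, read -0.10 (adjusted p = 0.587), without passing.

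The 5 Z-disc genes that rose were Myoz1, given above, Des, Flnc, Pdlim3 and Pdlim1. Des (NM_010043), desmin, the muscle intermediate filament that ties Z-discs together, had 7.46, 6.45 and 6.81 in the KO-labelled hearts, against 5.91, 5.83 and 5.84 in the control hearts. The controls lay within 0.1 of each other while the KO-labelled hearts spread over 1 log2 unit, and the difference was 1.05 ± 0.25 SE (adjusted p = 0.0192). Flnc (NM_001081185), filamin C, the muscle actin crosslinker, had 7.29, 6.28 and 6.57 in the KO-labelled hearts, against 5.91, 5.41 and 5.78 in the control hearts (log2 difference 1.02 ± 0.28 SE, adjusted p = 0.0294). Pdlim3 (NM_016798), the actinin-associated LIM protein, had 4.12, 3.55 and 3.66 in the KO-labelled hearts, against 2.45, 3.37 and 2.56 in the control hearts (log2 difference 0.98 ± 0.28 SE, adjusted p = 0.0339). Control replicate 2 stood near the KO-labelled hearts for Pdlim3. Pdlim1 (NM_016861), a related PDZ and LIM protein, had 6.25, 5.89 and 6.01 in the KO-labelled hearts, against 5.64, 5.58 and 5.56 in the control hearts (log2 difference 0.46 ± 0.13 SE, adjusted p = 0.0345). None of these 4 calls held in every alternative. Des lost its call in 3 of the 19, without control replicate 1 (adjusted p = 0.0617), without control replicate 3 (adjusted p = 0.0657) and without a filter on dim probes (adjusted p = 0.0588). Flnc lost it in 5, Pdlim3 in 7 and Pdlim1 in 8.

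The assembly and turnover factors had the lowest median of the 4 roles, -1.03 over 6 genes, of which 5 fell and 1 did not pass. The shares were 83.3% lower and 0% higher, against 23% and 16.1% over all genes and features tested. Trim54 (NM_021447), the muscle ubiquitin ligase MuRF3, had 4.001, 4.21 and 3.99 in the KO-labelled hearts, against 5.66, 5.33 and 5.43 in the control hearts, which is 2.66-fold lower (adjusted p = 0.00223, log2 difference -1.41 ± 0.14 SE). Mylk3 (NM_175441), the cardiac myosin light chain kinase, had 1.74, 2.02 and 2.21 in the KO-labelled hearts, against 3.42, 3.41 and 3.35 in the control hearts, which is 2.64-fold lower (adjusted p = 0.00242, log2 difference -1.40 ± 0.15 SE). Its second probe read -1.35. Smyd1 (NM_009762), a muscle lysine methyltransferase needed for myofibril assembly, had 1.41, 1.82 and 1.73 in the KO-labelled hearts, against 3.02, 2.98 and 2.93 in the control hearts, which is 2.503-fold lower (adjusted p = 0.00244). All 3 genes had groups that lay well apart.

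Unc45b, the muscle myosin chaperone, fell by 0.75 on the log2 scale, with 1.57 to 1.82 in the KO-labelled hearts and 2.43 to 2.54 in the control hearts (adjusted p = 0.00596). Trim55, the ubiquitin ligase MuRF2, fell by 0.68 on the log2 scale, with 0.83 to 1.17 in the KO-labelled hearts and 1.45 to 1.79 in the control hearts (adjusted p = 0.0158). Of the 19 alternatives with 5 or 6 hearts, Unc45b lost its call in 1, spike-in scaling (adjusted p = 0.0595), and Trim55 in 4. Smyd2, a broadly expressed methyltransferase, read 0.02 (adjusted p = 0.933), with overlapping groups.

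Probes of the same gene did not always read alike. Of the 37 genes 11 had more than 1 probe, and the difference between a gene's probes was compared between the groups for 18 pairs, with an exact 2-sided permutation test whose smallest p with 3 against 3 hearts is 0.1. For 7 of the 18 pairs the groups did not overlap, beside 30.5% of the 3885 such pairs over all named genes. Each of the 7 had an exact permutation p = 0.1 and an adjusted p of 0.257. Since 0.1 is the smallest possible p, no pair could pass, and the test cannot decide whether a ratio differed. In Pdlim5, a PDZ and LIM protein of the Z-disc, the probe with the highest mean (NM_019809) had 5.89, 4.99 and 5.41 in the KO-labelled hearts, against 5.47, 5.52 and 5.34 in the control hearts. Its difference was -0.01 (adjusted p = 0.976), while a probe for the transcript NM_001190852 was higher by 1.68 (adjusted p = 0.0113 with every probe tested). The log2 ratio of that probe to the first was -3.91, -4.35 and -4.44 in the KO-labelled hearts, against -6.17, -5.90 and -5.69 in the control hearts. For Ldb3 the log2 ratio of the NM_011918 probe to the main probe was -0.19, -0.45 and -0.16 in the KO-labelled hearts, against -1.45, -1.37 and -1.24 in the control hearts. The 2 Smyd1 probes read -1.32 and -0.70, and the 2 Capzb probes -0.01 and -0.36. A ratio of probes shows unequal change and does not say which probe was steady.

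**Figure D4:**
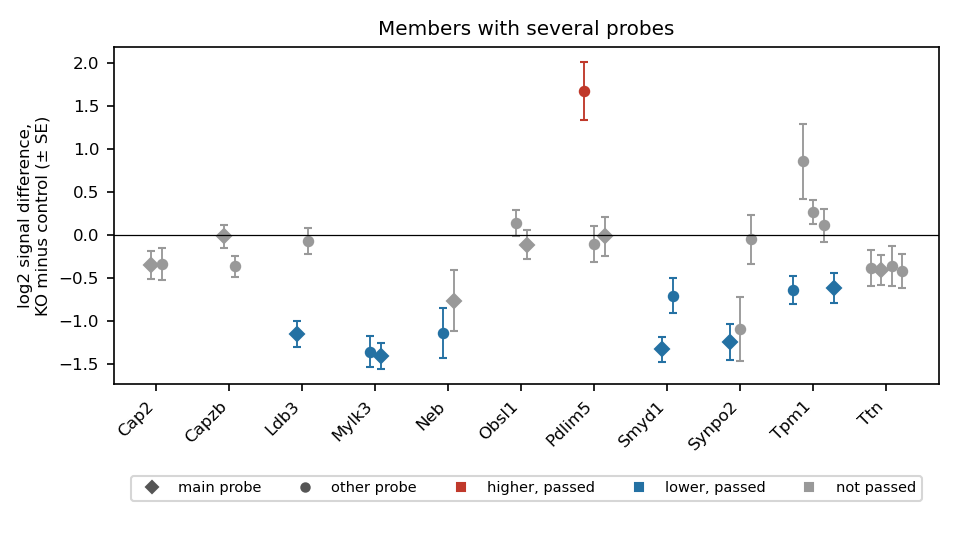
For each gene with several probes, the log2 signal difference, KO-labelled minus control, of every probe is plotted with its SE; diamonds are the probe that represents the gene and circles its other probes. The Pdlim5 probe at 1.68 and the Ldb3 probe at -0.06 stand away from the representing probes at -0.01 and -1.15.

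Related genes outside the set were counted in 2 lists. Among 30 measured filament regulators and paralogues, which include the non-muscle and skeletal relatives of actin, tropomyosin, alpha-actinin and filamin, 15 rose, 4 fell and 11 did not pass, with a median log2 difference of 0.44. That is 50% higher and 13.3% lower, against 16.1% and 23% over all genes and features tested. The 4 with the smallest p that passed were Actb, the cytoskeletal beta-actin (log2 difference 1.00, adjusted p = 0.00323), Actn4, the non-muscle alpha-actinin 4 (1.00, adjusted p = 0.00352), Tpm4, a non-muscle tropomyosin (1.24, adjusted p = 0.0038), and Pdlim7, the PDZ and LIM protein enigma (1.37, adjusted p = 0.00386). Chosen after their values were seen, Acta1, the skeletal alpha-actin, had 8.24, 8.37 and 7.95 in the KO-labelled hearts, against 6.58, 5.17 and 6.10 in the control hearts (log2 difference 2.24, adjusted p = 0.00559). Actn1 (1.56), Tpm3 (0.80), Flna (0.89) and Vim (1.32) also rose, and Tmod4 (-2.15) and Myoz3 (-0.95), relatives of Tmod1 and Myoz2, fell. None of these changed sign under another scaling or with normexp. Myoz3 was dim, well above background on 1 of the 3 KO-labelled arrays, so it entered the test only through the control hearts, where it is higher.

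**Figure D5:**
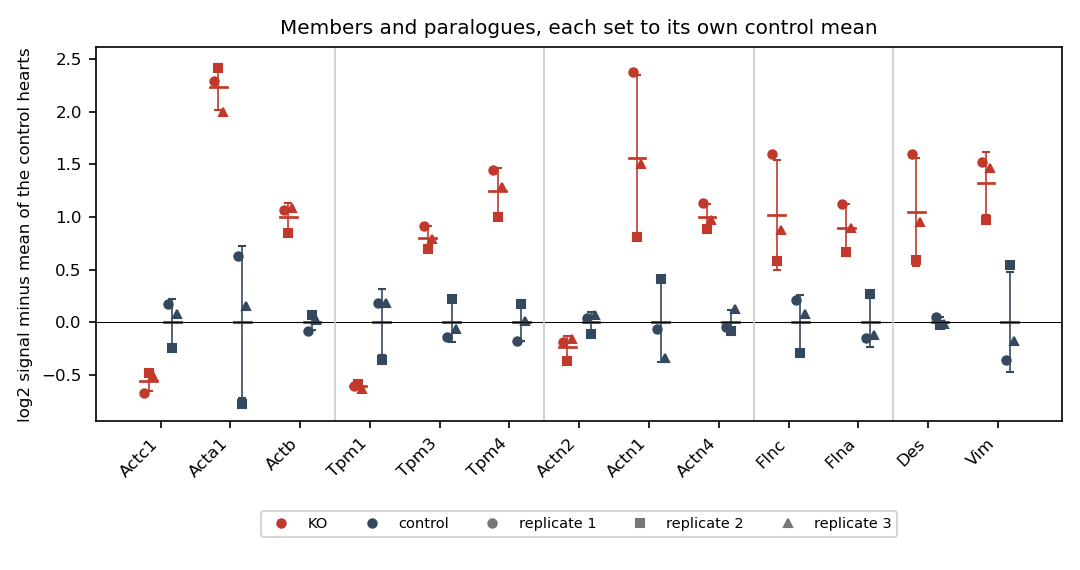
The log2 signal of each heart minus the mean of the control hearts of the same gene is plotted for actins, tropomyosins, alpha-actinins, filamins and intermediate filaments, KO-labelled hearts left and control hearts right within each gene. The cardiac forms Actc1, Tpm1 and Actn2 read -0.56, -0.61 and -0.24, while Acta1, Tpm4 and Actn1 rose by 2.24, 1.24 and 1.56. Actn2 did not pass, and under quantile scaling Actc1 and Tpm1 read -0.0008 and -0.09. Not every paralogue is plotted, and Acta2, which is left out, read -0.41 and did not pass.

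Among 32 other Z-disc, M-band and costamere genes, 6 rose, 12 fell and 14 did not pass, with a median log2 difference of -0.37. The share that rose, 18.8%, was near the 16.1% over all genes and features, and 37.5% fell, against 23% over all. Among those with the smallest p, the following fell: Itgb1bp2, melusin, a muscle integrin-binding protein (-1.27, adjusted p = 0.00276), Trim63, the ubiquitin ligase MuRF1 (-1.33, adjusted p = 0.00302), and Klhl41, a muscle kelch protein (-0.80, adjusted p = 0.0043).

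Markers of some cell types differed between the groups, and those of others did not or went both ways. Over all genes and features tested, 16.1% passed as higher and 23% as lower. Of 7 endothelial markers 0 passed in limma's test (2 at an unadjusted p below 0.05), and of 5 erythroid markers 1 fell. Of 9 ventricular cardiomyocyte markers 8 fell, with a summed signal of 4462 to 5870 in the KO-labelled hearts and 7430 to 10210 in the control hearts. Among these, Myh6, Myl2, Myl3 and Tnnt2 lost their call under some other scalings. Of 9 fibroblast markers 7 rose, with a summed signal of 1049 to 1182 in the KO-labelled hearts and 413.5 to 760.9 in the control hearts. Of 6 macrophage markers 4 rose, with a summed signal of 141.6 to 232.7 in the KO-labelled hearts and 73.99 to 118.6 in the control hearts. Of 9 smooth muscle and pericyte markers 3 rose and 3 fell, with a summed signal of 233.4 to 312.0 in the KO-labelled hearts and 233.7 to 241.0 in the control hearts. Fast skeletal muscle markers stood at 3 higher and 3 lower of 8 measured, with a median log2 difference of -0.21. Their summed signal was 132.8 to 205.3 in the KO-labelled hearts and 80.47 to 138.1 in the control hearts. Myl1, which rose, carries most of that sum. Tnnt3 (5.65) and Tnni2 (1.44) also rose, while Cacna1s (-2.65), Atp2a1 (-2.39) and Pvalb (-0.88) fell. Tnnt3 was well above background on 2 of the 3 control arrays, so it entered the test only through the KO-labelled hearts, where it is higher. The part of skeletal muscle RNA in the values of Mybpc2, Myoz1 and Neb was not tested. The skeletal myosins Myh1, Myh2 and Myh4, and Mylpf, Actn3 and Ryr1, were not well above background on every array of either group. The part of these cells in the results above was not tested.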

How the data were processed

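RNA from 6 mouse hearts was read on 6 arrays, all on 1 slide and in 1 scan, with KO-labelled and control hearts in different columns of the slide, so that slide position and group cannot be told apart. The deposited scanner files hold intensity values per spot on a linear scale, which per the file headers Agilent Feature Extraction 11.0.1.1 made by subtracting background and spatial trends. A second deposited table gives log2 values per probe. The submitters' processing notes list Feature Extraction and R 3.1.3, how that table was normalized was not found in the sources used here, and it served only as an alternative. Its column medians were -0.037, -0.050 and -0.015 for KO-labelled replicates 1 to 3 and 0.093, -0.018 and 0.074 for control replicates 1 to 3. Rows were centred on their median in 94.2% of cases, 95.5% of the differences between KO-labelled replicates 1 and 2 matched the scanner's log2 difference up to a constant within 0.001, so scale and direction are those of the scanner, and the rest of its processing is unknown. The flags for spots above background, saturated or outlying come from the same software and the same deposited files.

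From the processed signal, log2 was taken, outlier-flagged spots were left out, repeated spots averaged, and each array's 75th percentile subtracted. Of 55681 distinct gene probes, 55608 were kept and 26551 named through RefSeq accessions. Probes entered the test where all arrays of either group were well above background, and the probe with the highest mean stood for its gene. limma 3.58.1, run under R 4.3.3, fitted 20020 genes and features, 2-sided, with Benjamini-Hochberg adjustment at 0.05, after a test on simulated data. Depth is not defined for arrays, and with 3 hearts a group an exact permutation test of a single value cannot go below 0.1. Alternatives changed background correction (normexp, offset 50), scaling, filter, probe choice, variance model, replicate block and hearts.

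The 37 genes, the related lists and the marker lists were chosen with earlier results of these data known. Values in every heart are given for the 6 largest rises and the 10 largest falls that passed without overlap, for genes dim on an array of a group, for Ttn, Actc1, Tpm1, Actn2, Des, Mybpc3 and Capzb, and for genes whose probes differ in sign or call. From each related list up to 4 passing genes with the smallest p are named except 1 result that is not reported here, and Egln1 and Egln3 check the labels. Endothelial markers gave no call among 7 in limma's test (2 at an unadjusted p below 0.05), and 1 of 5 erythroid markers fell.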

Additional observations from a re-analysis of the deposited data

How the results depend on the processing

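The main setting gave 7820 passing genes and features, of which 6 of the 37 genes rose and 18 fell, with a median log2 difference of -0.51 over the 37. Without a filter on dim probes 4345 of 37174 genes and features passed, which is 11.7%, against 39.1% of 20020 in the main setting. Of the 37, 2 then rose and 12 fell. With array weights 13709 passed, and with the replicate block 4854. Spike-in scaling gave 4 rises and 10 falls among the 37, while 26.4% of all genes and features passed, against 39.1% in the main setting. The median over the 37 was -0.28 with quantile scaling, -0.27 with cyclic loess and -0.28 with spike-in scaling. The median of all genes moved by 0.05 with quantile scaling, 0.14 with cyclic loess and 0.23 with the spike-ins, and the median of the 37 minus that of all genes was -0.40 as scaled here, -0.22, -0.29 and -0.40 under these. The share of calls that were higher was 41.1% as scaled here, 55.3% with cyclic loess and 57.3% with the spike-ins. Leaving out each heart in turn gave 3900 to 8692 passing genes and features, 2 to 6 rises, 11 to 21 falls and a median of -0.55 to -0.38. Leaving out both KO-labelled replicate 3 and control replicate 1, a setting chosen after seeing the data, gave 401 passing genes and features, 0 rises in limma's test (4 at an unadjusted p below 0.05) and 1 fall. The cause of these shifts was not tested.

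Same-numbered hearts deviated from their group means with correlations of -0.15, -0.13 and -0.10, and 0 of 3 KO-labelled hearts correlated best with their own number. With 3 hearts a group these values cannot decide whether the numbers pair the hearts. With the replicate block 4 of the 37 rose and 12 fell, and the Tcap call was among those lost (adjusted p = 0.052). Over all genes and features 24.2% passed with that block, against 39.1% without it. Of the 24 passing genes, 23 kept their sign in every alternative, and Tpm1 read 0.0014 with the mean of its probes.

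Other sign changes were in genes that did not pass. With quantile scaling, Mybpc3 read 0.18, Obsl1 0.0625, Capzb 0.11, Pdlim5 0.17 and Synpo2l 0.0511. With cyclic loess, Mybpc3 read 0.0409, Obsl1 0.0546, Capzb 0.14, Pdlim5 0.16 and Synpo2l 0.053. With spike-in scaling, Mybpc3 read 0.0081, Obsl1 0.12, Capzb 0.22, Nebl 0.10, Pdlim5 0.22 and Synpo2l 0.14. With median scaling, Capzb read 0.0111 and Pdlim5 0.0096, and with normexp Pdlim5 read 0.0335. With the deposited log2 table, Mybphl read -1.68. With the mean of a gene's probes, Obsl1 read 0.0162 and Pdlim5 0.52. With array weights, Mybphl read -2.30, Obsl1 0.0088, Pdlim5 0.0152 and Smyd2 -0.0275. With KO-labelled replicate 3 and control replicate 1 both left out, Nebl read 0.0474 and Pdlim5 0.0111. With 1 heart left out, Mybphl ran from -1.77 to 2.45, Obsl1 from -0.21 to 0.0092, Nebl from -0.6767 to 0.25, Smyd2 from -0.13 to 0.11, Capzb from -0.10 to 0.0777 and Pdlim5 from -0.24 to 0.21. A slide block was not run because all arrays lay on 1 slide, and normexp used median signals. Depth is not defined for arrays, and dim genes such as Myoz1 are limited by signal near background.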
